A study of Mus musculus with 4 samples.

Results

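Glutathione transferases and antioxidant enzymes were examined in mouse liver 48 h after partial hepatectomy. The set comprised 40 listed genes: cytosolic and microsomal glutathione transferases, enzymes that make or reduce glutathione, peroxidases, the thioredoxin system, catalase and superoxide dismutases, Nrf2 (Nfe2l2), its inhibitor Keap1 and Nrf2 target enzymes. A member was measured through every probe set that the platform annotation assigned to that gene symbol alone, which gave 68 probe sets for 38 genes, of 18193 genes with such a probe set in the whole series. Prdx1 and Prdx6 had no probe set of their own. Mgst2 was measured but lay under the intensity filter (signals of 25.1 and 34.4 in sham, 39.1 and 6.26 after hepatectomy), which left 37 members tested through 64 probe sets.

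RNA came from mature liver of C57BL/6J mice. The study compared 2 arrays taken 48 h after a sham operation with 2 arrays taken 48 h after partial hepatectomy, in which part of the liver is removed and the remainder regrows. The series calls the arrays of a group biological duplicates. No source used here states age, sex, or whether an array held RNA of 1 animal or of several. The p-values therefore measure only the spread between these arrays.

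Glutathione transferases couple glutathione, the main small thiol of the cell, to reactive compounds so that these can be excreted, and liver expresses many of them at high levels. Glutathione peroxidases, peroxiredoxins, catalase and superoxide dismutases remove peroxides and superoxide, and thioredoxin reductase, glutathione reductase and sulfiredoxin restore the reduced or active forms. Many of these genes are known targets of the transcription factor Nrf2, which binds antioxidant response elements and is held at a low level by Keap1 until oxidants or electrophiles modify Keap1.

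The antioxidant response element core TGACNNNGC was searched on both strands of the promoters that RefSeq gives for GRCm38.p6, from 250 bases before to 50 bases after each gene start. Promoters were found for 34 of the 40 members. The core was present in those of 10 members (29.4%: Gclm, Gsta3, Gstm5, Gstm7, Mgst1, Nfe2l2, Prdx1, Sod1, Srxn1 and Txnrd1) and in those of 14.0% of all 27025 genes. A match is a description of the letters, not a binding site. A related core, TGACTCA, can overlap it, and among these matches did so in Prdx1 alone. TGACTCA was found in promoters of 5 of the 34 members (14.7%: Gstm5, Gstp1, Mgst2, Prdx1 and Srxn1) and of 5.95% of all genes. The matches of 4 genes are printed, which act in glutathione synthesis, thioredoxin reduction, peroxiredoxin repair and conjugation, each on the strand that reads TGACNNNGC, with the match in capitals. Positions are those of the first base of the match along the gene's own strand. Where the printed strand is the opposite one, that base is the last printed base of the match. The match of Gclm (chr3:122245413-122245441, minus strand) lies at position -134 from the start, and that of Txnrd1 (chr10:82859104-82859132, minus strand) at -92 of a downstream start. That of Gstm5 (chr3:107895802-107895830, plus strand) lies at -42, and that of Srxn1 (chr2:152105542-152105570, minus strand) at 29 after the start.
Gclm: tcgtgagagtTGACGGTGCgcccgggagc
Txnrd1: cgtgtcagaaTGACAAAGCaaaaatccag
Gstm5: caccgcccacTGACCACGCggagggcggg
Srxn1: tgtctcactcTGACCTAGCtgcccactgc

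Mgst3, Gstm2 and Gpx3, the 3 members that passed the test after hepatectomy, had no such core in this window. The 100 bases before their starts are shown because they belong to the genes on which the comparison turned, 5' to 3' on the gene's strand: Mgst3 (chr1:167393842-167393941, minus strand), Gstm2 (chr3:107986421-107986520, minus strand) and Gpx3 (chr11:54902754-54902853, plus strand).
Mgst3: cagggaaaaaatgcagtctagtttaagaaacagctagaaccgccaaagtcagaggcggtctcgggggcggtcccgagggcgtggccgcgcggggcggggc
Gstm2: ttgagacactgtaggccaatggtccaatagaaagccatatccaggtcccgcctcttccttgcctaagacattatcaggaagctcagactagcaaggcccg
Gpx3: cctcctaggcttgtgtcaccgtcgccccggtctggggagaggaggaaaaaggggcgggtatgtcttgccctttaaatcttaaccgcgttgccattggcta

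One array stood apart. Hepatectomy replicate 1 held adrenal transcripts: the signals of 8 measured adrenal cortex markers summed to 19741 there against 182 to 213 on the other 3 arrays. Those of 7 fat cell markers summed to 7094 there against 2885 in hepatectomy replicate 2 and 1242 and 1358 in sham. In hepatectomy replicate 2 Fabp4 alone gave 2592 of the fat cell sum. Cidec, Adipoq and Lep were also above both sham arrays there, and Retn, Ucp1 and Slc36a2 were not. Of 7 measured neutrophil markers, S100a8 and S100a9 rose and made up most of the list's sum, which was 9892 and 3561 after hepatectomy and 472 and 371 in sham; Camp, Ngp and Mpo were under 20.4, the highest bacterial control signal, on every array. The 10 hepatocyte markers were all above that level on every array, with sums from 117041 to 137225. Kupffer cell and macrophage markers summed to between 19386 and 20637 on all 4 arrays, with Marco higher and Csf1r lower after hepatectomy. Of 10 measured stellate cell and fibroblast markers, 4 were called higher (Col1a1, Col3a1, Acta2 and Col1a2) and 0 lower. The uncalled markers did not move together. Lrat (log2 difference -0.75) and Reln (-0.46) were below sham on both hepatectomy arrays, Des and Hgf were above, and Dcn and Pdgfrb overlapped. The list summed to 7734 and 10066 in sham and to 13738 and 11908 after hepatectomy. Of 8 measured T, B and NK cell markers Gzma fell, and that list summed to 626 and 489 in sham and to 239 and 277 after hepatectomy. In whole tissue, fewer cells of a type and less RNA per cell cannot be told apart.

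Most members did not differ detectably between hepatectomy and sham. Signals were compared as log2(signal + 8.57) with limma, and a gene was called at a Benjamini-Hochberg adjusted p of 0.05 over all 27022 tested probe sets. Each gene stood as its probe set with the highest mean. By this rule 3 of 37 members (8.11%) rose, Mgst3, Gstm2 and Gpx3, and 0 fell. Of all 12560 genes tested, 3.57% rose and 1.09% fell. An unadjusted limma p under 0.05 was reached by 14 of the 37 members and by 2502 of the 12560 genes. Counted over probe sets, 4 of 64 rose, against 2.51% of all probe sets. After each array was centred on its median, 2 members rose (Gstm2 and Hmox1) and 1 fell (Gsta2), against 3.93% and 1.39% of all genes. With so few calls, nothing particular to the members is read from these shares. The median log2 difference of the members was -0.01 (range -1.01 to 1.37) and that of all genes 0.02. For 13 members both hepatectomy arrays lay above both sham arrays, and for 12 both lay below. The remaining 12 overlapped. Over all genes 28.1% lay above and 23.2% below. With a single array left out, the count of rises among members and the share of all genes that rose both changed. Both were highest without hepatectomy replicate 2, and each of the other omissions lowered them below their values on all 4 arrays. All 3 calls ended when the intensity filter or the variance trend was dropped.

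**Figure D1:**
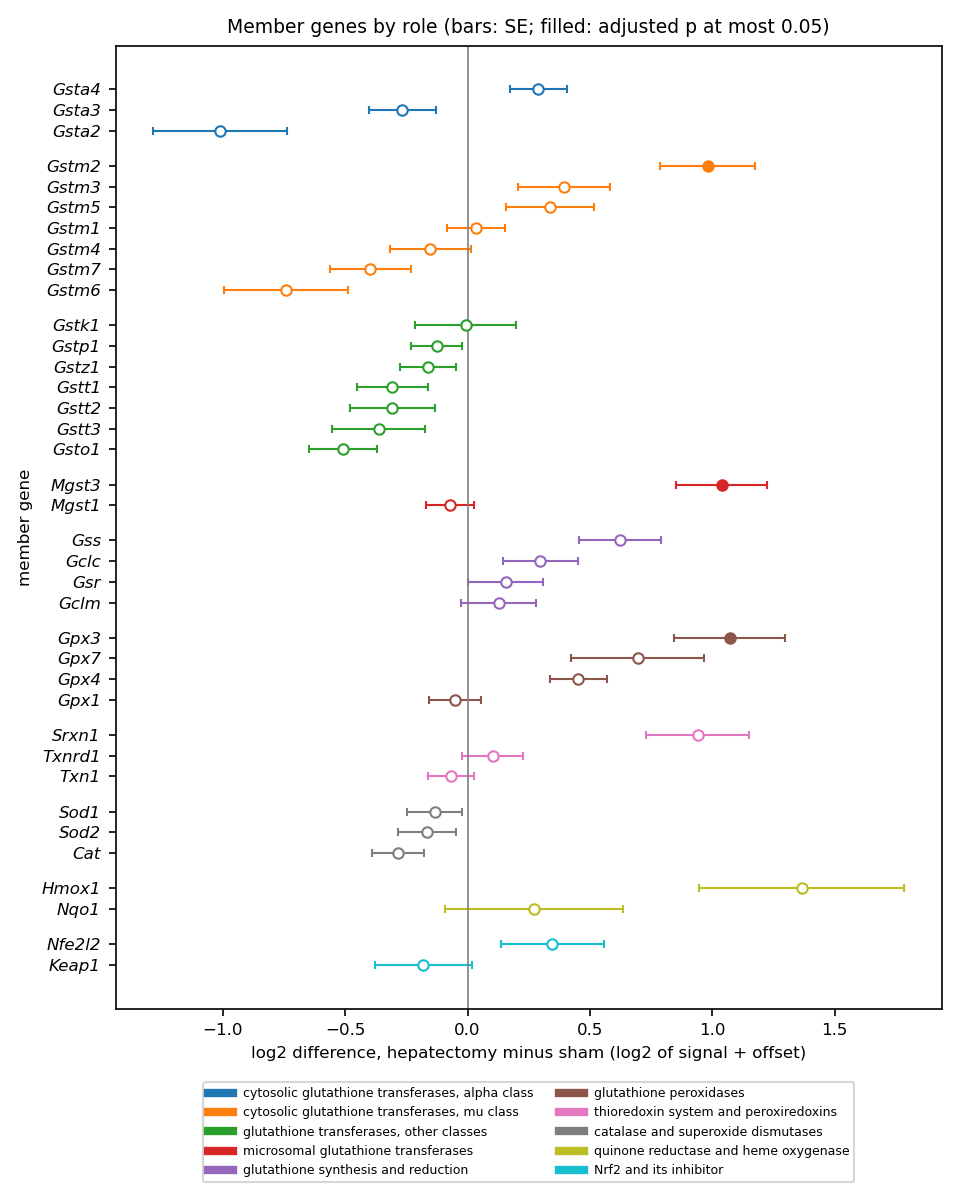
Log2 difference between hepatectomy and sham (x axis, log2 of signal + offset) of the 37 tested member genes, ordered within their roles (y axis); bars are standard errors from limma and filled points passed the adjusted p of 0.05. Mgst3, Gstm2 and Gpx3 passed. The 7 transferases of the omega, pi, theta, kappa and zeta classes all lie left of 0, as do 5911 of all 12560 tested genes. Gstk1 (-0.01) turned positive after quantile normalization.

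Within the mu class, the 7 genes lay next to each other on chromosome 3 and did not move as 1 group. Gstm2 rose: its signal was 3876 and 2722 in sham against 7224 and 5703 after hepatectomy, and the groups did not overlap. Its log2 difference was 0.98 ± 0.19 (SE; limma adjusted p = 0.0357, from 0.000291 to 0.218 over 15 alternative settings). Gstm2 encodes a mu class transferase of broad substrate range. Leaving out hepatectomy replicate 1 ended the call (0.81, adjusted p = 0.0674), as did leaving out sham replicate 2 (0.73, adjusted p = 0.128). Averaging the probe sets of each gene before the test ended it too (0.98, adjusted p = 0.0554).

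The neighbours of Gstm2 in gene order, Gstm3 and Gstm1, did not pass. Gstm1, among the major transferases of mouse liver, had signals of 16923 and 13768 in sham and 15842 and 15412 after hepatectomy, which overlapped (log2 difference 0.03 ± 0.12), and its 4 probe sets disagreed in sign. Gstm3 had signals of 6169 and 6025 in sham against 9910 and 6482 after hepatectomy (0.39 ± 0.19, adjusted p = 0.348). Its difference was 0.0883 with hepatectomy replicate 1 left out (adjusted p = 0.862) and 0.70, a call, with replicate 2 left out (adjusted p = 0.0233). A second probe set of Gstm3 gave 1173 and 1241 against 3914 and 1584 (1.04 ± 0.36, adjusted p = 0.191). The same omissions gave it 0.39 (adjusted p = 0.376) and 1.69, again a call (adjusted p = 0.000306). In both probe sets the array with adrenal transcripts was the highest of the 4, and the part of those transcripts was not tested.

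The other mu class members lay on both sides of 0. Gstm5 had signals of 1216 and 1320 in sham and of 1800 and 1427 after hepatectomy (0.34 ± 0.18, adjusted p = 0.407). Gstm6 had 2137 and 1763 against 889 and 1509 (-0.74 ± 0.25, adjusted p = 0.189), and hepatectomy replicate 1 was the lower of its group. Without hepatectomy replicate 1 the value of Gstm6 was -0.36, and without replicate 2 it was -1.12 with a call (adjusted p = 0.00671). Gstm7, with 1810 and 1984 against 1316 and 1570, differed by -0.40 ± 0.17 (adjusted p = 0.284), and Gstm4 by -0.15 ± 0.17. For Gstm4, Gstm6 and Gstm7 both hepatectomy arrays were below both sham arrays. Mu class genes are close paralogs, and the probe sets may share targets among them, so values of single genes in this class are uncertain.

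None of the 3 alpha class transferases passed. Gsta2, whose class reduces lipid hydroperoxides, had signals of 5487 and 3544 in sham and 2822 and 1692 after hepatectomy. Both hepatectomy arrays were lower than both sham arrays, although the arrays within each group also differed by 1.55-fold and 1.67-fold. The log2 difference was -1.01 ± 0.27 (adjusted p = 0.102, from 0.000429 to 0.507 over the alternatives), and median centring gave a call (-1.10, adjusted p = 0.0204), as did leaving out hepatectomy replicate 1 (-1.38, adjusted p = 0.00723) and the replicate block (-1.01, adjusted p = 0.000429). With hepatectomy replicate 2 omitted Gsta2 gave -0.64 (adjusted p = 0.147), and with sham replicate 1 omitted -0.70 (adjusted p = 0.507). Gsta3 overlapped in its brighter probe set, with 14388 and 12133 in sham and 9884 and 12214 after hepatectomy (-0.27 ± 0.14, adjusted p = 0.392). The other probe set of Gsta3 had 10560 and 9419 against 4856 and 8605 (-0.62 ± 0.24, adjusted p = 0.232), with hepatectomy replicate 1 the lowest. Gsta4, which conjugates 4-hydroxynonenal, a product of lipid peroxidation, had 7656 and 7676 against 10111 and 8685 (0.29 ± 0.12, adjusted p = 0.27).

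All 7 transferases of other classes had a negative difference, and none passed. Of all 12560 tested genes, 5911 had a negative and 6649 a positive difference. Gstk1 turned to 0.0293 after quantile normalization and to 0.34 when hepatectomy replicate 1 was omitted. Gsto1, an omega class enzyme with thioltransferase activity, had the most negative, with 4953 and 6021 in sham and 3785 and 3893 after hepatectomy (-0.51 ± 0.14, adjusted p = 0.104). Its other probe set gave 3519 and 3580 against 2479 and 2513 (-0.51 ± 0.13, adjusted p = 0.0906). In both, the hepatectomy arrays lay close together and below sham. Among the theta class genes, Gstt3 differed by -0.36 ± 0.19, Gstt2 by -0.31 ± 0.17 and Gstt1 by -0.31 ± 0.14, with adjusted p from 0.343 to 0.439. Gstz1, which acts in tyrosine breakdown, differed by -0.16 ± 0.11, and Gstp1, the pi class enzyme, by -0.13 ± 0.10 from a sham signal of 15801 ± 1489 (SD, n = 2). Gstk1, a mitochondrial and peroxisomal enzyme, had 7242 and 6619 in sham and 5429 and 8738 after hepatectomy, so that the hepatectomy arrays lay on opposite sides of sham (-0.01 ± 0.21).

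The microsomal transferase Mgst3, a membrane protein with transferase and peroxidase activity towards lipid hydroperoxides, rose with the smallest adjusted p of the members. Its signal was 661 and 557 in sham against 1252 and 1259 after hepatectomy. The groups were well apart and the hepatectomy arrays nearly equal. The log2 difference was 1.04 ± 0.18 (adjusted p = 0.0233, from 0.00395 to 0.162 over the alternatives), and without the array with adrenal transcripts it was 1.04 (adjusted p = 0.0265). Leaving out either sham array ended the call (1.16 with an adjusted p of 0.108 when replicate 1 was omitted, 0.92 and 0.162 when replicate 2 was), as did median centring (0.95, adjusted p = 0.0517). Mgst1, an abundant microsomal transferase, had 13695 and 13049 against 13166 and 12295, which overlapped (-0.07 ± 0.10).

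**Figure D2:**
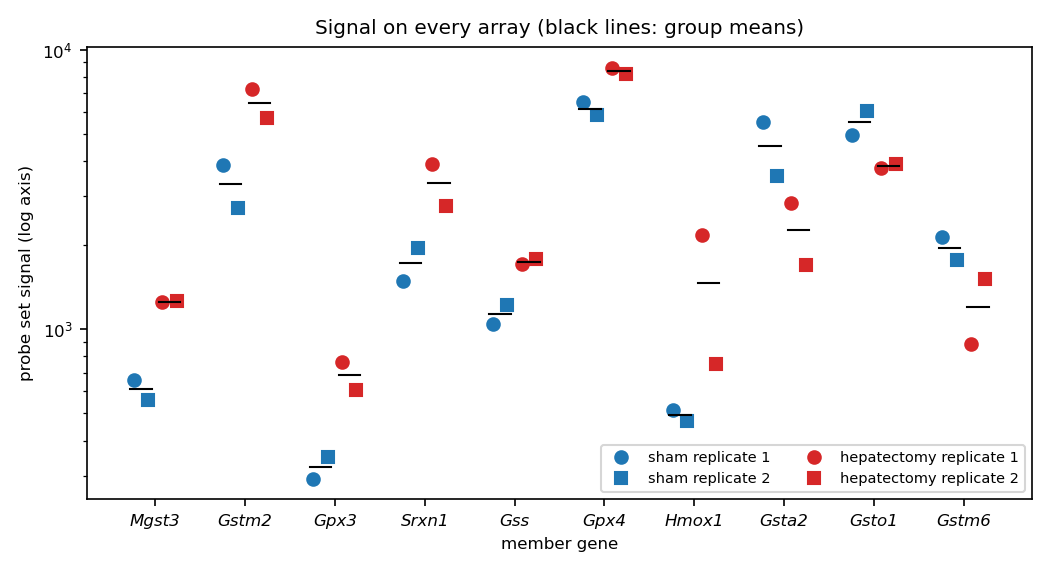
Probe set signal (y axis, log scale) of 10 member genes on each of the 4 arrays; circles are replicate 1, squares replicate 2, blue sham, red hepatectomy, and black lines the group means. Mgst3 is nearly equal on the hepatectomy arrays (1252 and 1259), whereas Hmox1 is 2171 on replicate 1 and 752 on replicate 2; levels of different genes are not comparable.

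All 4 genes of glutathione synthesis and reduction had a positive difference and none passed. The difference was also positive for 6649 of all 12560 tested genes. Gclm turned to -0.0395 when hepatectomy replicate 1 was omitted and Gsr to -0.0101 when sham replicate 2 was. Gss, glutathione synthetase, which adds glycine in the last step, had signals of 1043 and 1226 in sham and 1709 and 1784 after hepatectomy. The groups did not overlap (0.62 ± 0.17, adjusted p = 0.0988, from 0.0567 to 0.531 over the alternatives), and its second probe set had 824 and 1163 against 1472 and 1478 (0.59 ± 0.20, adjusted p = 0.194). Gclc, the catalytic subunit of glutamate-cysteine ligase, which sets the rate of synthesis, had 2262 and 2550 against 3195 and 2733 (0.30 ± 0.15, adjusted p = 0.387). Its modifier subunit Gclm had 3298 and 3144 against 3948 and 3133, with overlap (0.13 ± 0.15). Glutathione reductase, Gsr, which regenerates reduced glutathione, overlapped too (0.16 ± 0.15).

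Of 4 glutathione peroxidases, the secreted Gpx3 rose. Its signal was 293 and 350 in sham and 765 and 608 after hepatectomy, without overlap. The log2 difference was 1.07 ± 0.23 (adjusted p = 0.0452, from 0.0112 to 0.324 over the alternatives). Leaving out hepatectomy replicate 1 ended the call (0.91, adjusted p = 0.0968), as did leaving out sham replicate 1 (0.94, adjusted p = 0.324) or 2 (1.20, adjusted p = 0.143) and median centring (0.98, adjusted p = 0.0599) or quantile normalization (0.99, adjusted p = 0.0578). The adrenal cortex marker sum was also higher in hepatectomy replicate 1. The fat cell sum, mostly Fabp4 in replicate 2, was higher on both hepatectomy arrays. So was the stellate cell and fibroblast sum, and both sums were highest in replicate 1. Their part in the value of Gpx3 was not tested.

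Gpx4, which reduces phospholipid hydroperoxides and guards against ferroptosis, did not pass in either probe set. The brighter had 6477 and 5816 in sham and 8626 and 8172 after hepatectomy (0.45 ± 0.12, adjusted p = 0.0881), and the other had 2641 and 2428 against 4122 and 3518 (0.59 ± 0.15, adjusted p = 0.0775). Neither overlapped between groups, and the brighter was called after quantile normalization (0.49, adjusted p = 0.0256). Gpx7, of the endoplasmic reticulum, had 300.3 and 282 against 603 and 375 (0.70 ± 0.27, adjusted p = 0.25). Omitting hepatectomy replicate 1 gave Gpx7 0.36 (adjusted p = 0.588), and omitting replicate 2 gave 1.03 with a call (adjusted p = 0.0374). Gpx1, the abundant cytosolic peroxidase, had 13591 and 12169 against 12807 and 12021 and overlapped (-0.05 ± 0.11).

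Srxn1, sulfiredoxin, which repairs overoxidised peroxiredoxins and is a known Nrf2 target, lay at the threshold. All 4 of its tested probe sets were higher on both hepatectomy arrays than on both sham arrays, and 1 was called. The called probe set had 1063 and 1270 in sham and 2707 and 1917 after hepatectomy (0.97 ± 0.20, adjusted p = 0.0462, from 0.00384 to 0.291 over 14 alternatives), and the brightest, which stands for the gene, had 1489 and 1958 against 3909 and 2758 (0.94 ± 0.21, adjusted p = 0.0562, from 0.00503 to 0.321). The dimmer probe sets differed by 1.23 ± 0.27 (adjusted p = 0.0539) and 1.21 ± 0.35 (adjusted p = 0.122). Without hepatectomy replicate 1 the called probe set had a value of 0.72 (adjusted p = 0.0929). Its call also ended with sham replicate 1 omitted (0.84, adjusted p = 0.291), with sham replicate 2 omitted (1.09, adjusted p = 0.119), after median centring (0.88, adjusted p = 0.0527) and without the filter or the trend (adjusted p of 0.139 and 0.208). Probe sets of 1 gene read the same transcripts and are not replicates.

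Thioredoxin and its reductase differed little. Txn1 had 13664 and 13640 in sham and 13337 and 12726 after hepatectomy (-0.07 ± 0.10), and Txnrd1, which reduces thioredoxin with NADPH, had 4846 and 4380 against 4908 and 4992 (0.10 ± 0.12). Both adjusted p were above 0.75. Catalase, the peroxisomal enzyme that breaks down hydrogen peroxide, had 13849 and 13393 against 11911 and 10491 in its brighter probe set, with both hepatectomy arrays lower (-0.28 ± 0.11, adjusted p = 0.231). Cytosolic Sod1 and mitochondrial Sod2 differed by -0.13 ± 0.11 and -0.17 ± 0.12 (adjusted p of 0.627 and 0.553).

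Hmox1, the inducible heme oxygenase that breaks down heme, had the largest difference of the tested members and did not pass. Its signal was 515 and 469 in sham, 2171 in hepatectomy replicate 1 and 752 in replicate 2. Both hepatectomy arrays were above sham, but they differed from each other by 2.89-fold, more than for any other tested member. The log2 difference was 1.37 ± 0.42 (adjusted p = 0.145, from 0.000175 to 0.422 over the alternatives). It was 0.61 without replicate 1 (adjusted p = 0.227) and 2.12, with a call, without replicate 2 (adjusted p = 0.000175). Adrenal cortex, fat cell and neutrophil marker sums were highest in replicate 1 as well, and their part in this value was not tested.

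Nqo1, an NADPH quinone reductase and a classical Nrf2 target, varied more within groups than between them. Its signal was 588 and 355 in sham and 786 and 389 after hepatectomy (0.27 ± 0.36, adjusted p = 0.781). Nfe2l2 itself, whose product is controlled mainly through protein stability, had 2217 and 2616 against 3776 and 2486 (0.35 ± 0.21, adjusted p = 0.472), and Keap1 had 1655 and 2341 against 1623 and 1856 (-0.18 ± 0.20). Both overlapped between groups. In Nqo1 and Nfe2l2 alike the highest value was that of hepatectomy replicate 1.

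The hepatectomy arrays also differed from each other. Replicate 1 was at least 1.5-fold above replicate 2 for 6 members, Gsta2, Gstm3, Gpx7, Nqo1, Hmox1 and Nfe2l2, and replicate 2 was at least 1.5-fold above replicate 1 for Gstm6 and Gstk1. The sham arrays differed by that much for Gsta2 and Nqo1. The median absolute log2 difference between hepatectomy arrays was 0.22 for the members and 0.24 for all genes, and between groups it was 0.30 and 0.25. The former compares single arrays and the latter means of 2 arrays, which vary less, so the values are not directly comparable.

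**Figure D3:**
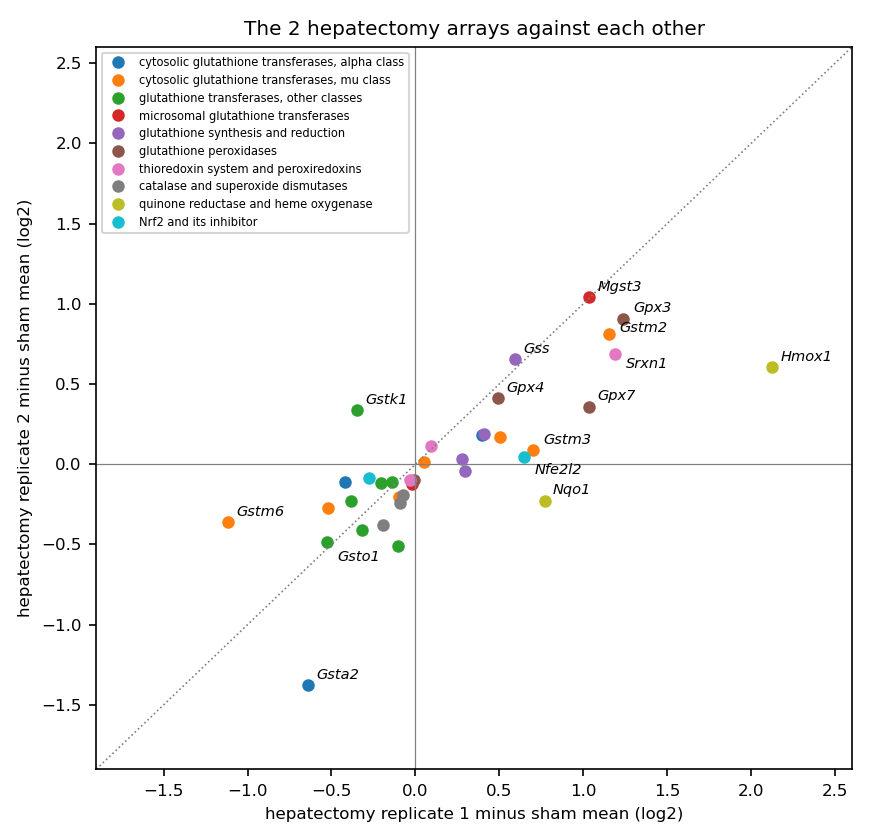
Log2 difference of hepatectomy replicate 1 (x axis) and replicate 2 (y axis) from the mean of the sham arrays for the 37 tested members, coloured by role; the dotted line marks equal values. Mgst3 and Gss lie close to the line, and Hmox1, Nqo1 and Gstm6 farthest from it.

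Of 81 further genes of glutathione metabolism, the thioredoxin and peroxiredoxin families, Nrf2 targets and Nrf2 regulators, 72 were measured and 66 tested. Of these 1 rose and 1 fell (Msrb3 and Me1), with a median log2 difference of -0.03. Of all genes 3.57% rose and 1.09% fell. Msrb3, a methionine sulfoxide reductase, had signals of 1251 and 1434 in sham and 2448 and 2329 after hepatectomy (0.83 ± 0.16, adjusted p = 0.0299, from 0.00721 to 0.225 over the alternatives). Me1, malic enzyme, which makes NADPH and is both an Nrf2 target and a lipogenic gene, fell from 4261 and 4028 to 2330 and 2395 (-0.81 ± 0.13, adjusted p = 0.017, from 0.00329 to 0.165). The groups did not overlap for either gene. Both calls ended when either sham array was left out, and that of Msrb3 also when hepatectomy replicate 1 was (0.79, adjusted p = 0.0513). None of the 10 tested regulators of the Nrf2 pathway in that list passed.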

How the data were processed

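Total RNA of 4 liver samples was labelled with biotin and hybridised to Affymetrix arrays that measure a transcript with probe sets. The authors deposited linear intensities, 1 signal per probe set and array. GCOS 1.4 made them, per the submitters' processing notes, with settings that no source used here states. The mean signal after trimming 2% at each end was 500.0 on every array, so a scaling to a common mean preceded deposit. Scan dates were not given, and no batch could be tested.

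Of 45101 probe sets, 64 controls were left out, and 34945 had 1 gene symbol. Signals became log2(signal + 8.57), the offset being the 20th percentile of all values; this understates folds of dim genes. Probe sets with a mean under the 40th percentile (5.09) were left out. Hepatectomy was set against sham with limma 3.58.1 in R 4.3.3 (lmFit, eBayes with trend), two-sided, with Benjamini-Hochberg adjustment. The number of arrays limits the precision. Alternatives changed the offset, filter, scaling, variance model, replicate block, probe set choice and arrays, and kept the tested probe sets unless the filter or probe set choice was the one changed. The code was tested on simulated data. The members, lists and tests were chosen with earlier results of these data known. Every member is named; of the other pathway genes, those called are named. Same-numbered arrays of the groups deviated with a correlation of 0.10 and share only a number.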

Additional observations from a re-analysis of the deposited data

How the results depend on the processing

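Of the counts, 3 member genes higher became 0 without the intensity filter and 0 without a trend, and 5 with the replicate block; leaving out 1 array gave 0 to 7. Lower member genes numbered 0, but 1 after median centring (Gsta2) and 1 with the replicate block (Gsta2), and 0 to 1 without 1 array. Called member probe sets went from 4 to 0 without the filter, 0 without a trend and 12 with the block (0 to 14 without 1 array). Called genes of the other pathway lists went from 2 to 4 with the stricter filter, after median centring, with robust variances and without the shared probe sets (suffix _x_at or _s_at), to 0 without the filter and 0 without a trend, and to 7 with the block (0 to 5 without 1 array). Over all probe sets 916 were called, 308 without the filter, 258 without a trend, 1943 with the block and 343 to 1995 without 1 array. Replicate numbers pair the arrays only by number. The members' median was -0.01, -0.0938 after median centring, and -0.08 to 0.06 without 1 array. Median centring moved the median of all genes as well, from 0.0247 to -0.0618. The looser motif TGANNNNGC was in the promoters of 17 members (50% of 34) and of 45.0% of all genes. Directions turned for members without a call. Gstm1 gave -0.16 with the mean of probe sets, -0.0527 after median centring, -0.0251 without shared probe sets and -0.12 to 0.183 without 1 array. With the mean of probe sets Mgst1 gave 0.22 and Keap1 0.12, and with quantile normalization Gstk1 gave 0.0293. Without 1 array Gstk1 ranged from -0.350 to 0.34, Gclm from -0.0395 to 0.293, Gsr from -0.0101 to 0.322, Gpx1 from -0.131 to 0.0280, Nqo1 from -0.23 to 0.770 and Keap1 from -0.430 to 0.0687. The causes were not tested. An array left alone in its group was assumed to vary like the other group.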

Other observations

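Probe sets of 1 gene did not always agree. Of 18 members with several tested probe sets, 15 had all differences in 1 direction, and Gstm1, Mgst1 and Keap1 did not. Sod1 had bright probe sets with little difference (-0.13 ± 0.11 and -0.03), while a dim one had signals of 130 and 141 in sham and 68.1 and 35.7 after hepatectomy (-1.31, adjusted p = 0.109). A dim Mgst1 probe set had 109 and 120 in sham against 174 and 159 after hepatectomy (0.51, adjusted p = 0.409), while the bright one differed by -0.07. These probe sets were picked after their values were seen.

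Gstcd, named for a glutathione transferase C-terminal domain, and Akr1b8, an aldo-keto reductase, lay next to the threshold among the other pathway genes. They, Ccs and Chac1 were named after their values were seen. Gstcd had signals of 93.6 and 64.9 in sham and 243 and 198 after hepatectomy (a fold of 2.63, adjusted p = 0.0512). Akr1b8 had 134 and 169 against 498 and 317 (a fold of 2.56, adjusted p = 0.0501). Ccs had 4196 and 3791 against 2666 and 2742 (a fold of 0.679, adjusted p = 0.0708). Chac1, which degrades glutathione, lay further from the threshold, with 352 and 283 against 175 and 86.6 (a fold of 0.408, adjusted p = 0.101).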
